A study of Rattus norvegicus with 6 samples.

Results

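Genes of the mitotic machinery and the kinesin family were examined in cultured rat tracheal basal cells, the stem cells of the airway lining. Members were chosen by gene symbol: every gene named Kif with a number or Cenp with a letter, plus 18 named genes of the kinetochore, spindle checkpoint and spindle. With a named probe set on the array they numbered 54 of 15037 genes, and the named genes Bub1b and Top2a had none. Of the 54 genes, 38 serve cell division, 10 are kinesins of intracellular transport and 6 are ciliary or other kinesins. Kif2a, a motor used in mitosis and outside it, was counted among these 6 and not with the division genes. No member was filtered out for low signal; Kif2b, Kif26a and Kif27 were among the dimmest 25% of genes and the other 51 were not.

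Primary tracheal cells came from wild-type male Sprague Dawley rats aged 12 weeks, and the labels name no transgene or drug. There were 3 cell lines, each pooled from a group of 3 rats, and each line was divided on isolation between BEGM and EpiX, both epithelial culture media. RNA was taken after 8 days in culture, which gave 3 BEGM arrays and 3 EpiX arrays. The comparison asks how the medium changes cells of the same lines, and all values describe cells in culture and not the trachea itself.

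A dividing cell builds a spindle of microtubules and attaches it to each chromosome at the kinetochore, a protein assembly on the centromere. The spindle checkpoint holds the cell in metaphase until every kinetochore is attached, and the anaphase-promoting complex then marks securin and cyclin B for destruction. Kinesins are motor proteins that move along microtubules: some push, slide or shorten the microtubules of the spindle, others carry vesicles and organelles through cells that need not divide, and some work in cilia. Most genes of the spindle motors and the kinetochore are transcribed late in the cell cycle, so their RNA is low in resting cells. Their promoters are known for CCAAT boxes upstream and a short cell cycle element, the CHR, often written TTTGAA, close to the transcription start.

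The promoters below are printed because they belong to genes the results turn on and show where these letters lie. They run from 150 bases before to 50 bases after the annotated start and come from RefSeq on rat build GRCr8. Capitals mark TTTGAA and CCAAT on either strand, so that TTCAAA and ATTGG are also capitalised. Cenpf, Nusap1, Kif22, Ttk and Kif11 rose in EpiX, Plk1 did not pass the test, and Kif5b and Kif3a are transport kinesins.
Cenpf (chr13:103760837-103761036, minus strand): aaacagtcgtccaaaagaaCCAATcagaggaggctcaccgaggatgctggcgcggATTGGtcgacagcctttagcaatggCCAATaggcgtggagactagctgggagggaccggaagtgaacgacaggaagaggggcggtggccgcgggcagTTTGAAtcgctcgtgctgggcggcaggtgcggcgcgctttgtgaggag
Nusap1 (chr3:127057145-127057344, plus strand): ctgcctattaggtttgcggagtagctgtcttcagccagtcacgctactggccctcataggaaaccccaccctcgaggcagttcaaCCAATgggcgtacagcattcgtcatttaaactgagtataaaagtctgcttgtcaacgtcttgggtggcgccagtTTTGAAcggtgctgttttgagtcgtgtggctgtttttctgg
Kif22 (chr1:191080829-191081028, minus strand): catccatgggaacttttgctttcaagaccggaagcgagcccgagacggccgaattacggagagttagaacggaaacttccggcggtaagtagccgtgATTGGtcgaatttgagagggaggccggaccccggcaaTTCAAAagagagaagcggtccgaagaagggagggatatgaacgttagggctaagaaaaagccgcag
Ttk (chr8:93634489-93634688, plus strand): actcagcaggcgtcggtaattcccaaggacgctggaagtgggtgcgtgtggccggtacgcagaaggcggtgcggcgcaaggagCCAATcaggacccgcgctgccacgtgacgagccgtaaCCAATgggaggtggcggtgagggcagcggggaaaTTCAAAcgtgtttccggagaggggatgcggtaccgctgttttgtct
Kif11 (chr1:244536717-244536916, plus strand): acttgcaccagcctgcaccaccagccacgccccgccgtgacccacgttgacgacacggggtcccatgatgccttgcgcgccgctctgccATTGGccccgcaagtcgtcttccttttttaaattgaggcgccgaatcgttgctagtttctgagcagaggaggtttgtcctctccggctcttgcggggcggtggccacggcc
Plk1 (chr1:186147508-186147707, plus strand): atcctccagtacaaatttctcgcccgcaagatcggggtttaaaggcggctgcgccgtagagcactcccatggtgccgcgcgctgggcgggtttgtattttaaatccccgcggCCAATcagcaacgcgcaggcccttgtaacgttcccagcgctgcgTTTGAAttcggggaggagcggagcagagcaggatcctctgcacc
Kif5b (chr17:56185236-56185435, plus strand): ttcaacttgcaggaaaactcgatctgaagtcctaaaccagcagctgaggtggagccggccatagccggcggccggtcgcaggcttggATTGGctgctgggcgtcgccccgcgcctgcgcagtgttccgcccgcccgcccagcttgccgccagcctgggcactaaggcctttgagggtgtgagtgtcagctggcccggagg
Kif3a (chr10:38226620-38226819, plus strand): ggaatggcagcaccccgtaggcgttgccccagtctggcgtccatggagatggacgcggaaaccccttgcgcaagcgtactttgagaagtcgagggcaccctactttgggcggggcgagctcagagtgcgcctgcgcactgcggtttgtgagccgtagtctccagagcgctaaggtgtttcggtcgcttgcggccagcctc

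In the promoters of Cenpf, Nusap1, Ttk and Plk1 the TTTGAA letters begin 3, 10, 5 and 7 bases into the gene, counting the start as 1, and in Kif22 they begin at -16, with -1 next to the start. The CCAAT nearest to the start begins at -70 in Cenpf, -65 in Nusap1, -30 in Ttk, -38 in Plk1 and -53 in Kif22. Kif11 and Kif5b hold CCAAT only, at -61 and -63, and Kif3a holds neither. Over the full windows of 250 bases before to 50 after the start, 47 of the 54 genes had a RefSeq entry, with 48 windows because Kif2c has 2. TTTGAA was present in 20 of the 34 windows of division genes (58.8%), in 1 of the 14 windows of transport, ciliary and other kinesins (7.14%) and in 18.3% of all 33469 windows. CCAAT was present in 17 of 34 windows, 4 of 14 (28.6%) and 37.5% of all windows. The 2 motifs can share letters, and among members they overlapped by 1 base in Mki67 alone. Among division genes, TTTGAA was present in 5 of the 10 windows of genes that rose and in 15 of the 24 windows of those not called; a match is a description of letters and not a tested site.

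Cells in EpiX had higher RNA levels of 12 of the 54 genes than cells in BEGM, and lower levels of 0, by limma at an adjusted p (Benjamini-Hochberg, BH) under 0.05 across all genes. All 12 serve division: the spindle motors Kif11, Kif18a, Kif18b and Kif22, the kinetochore proteins Cenpf and Cenpq, the checkpoint proteins Bub1, Mad2l1 and Ttk, the kinase Aurkb, and the spindle proteins Nusap1 and Tpx2. Of all 15037 genes 5.78% were called, 2.63% higher and 3.15% lower. This fit did not pair the arrays. With the sample number as a block, 17 of the 54 genes were called higher and 1 lower, against 3.94% and 4.39% of all genes. Each difference is the EpiX mean minus the BEGM mean in log2 units, and the 12 ranged from 0.82 (Tpx2) to 1.53 (Cenpf), which is 1.76-fold to 2.88-fold if the logarithm has base 2, as assumed throughout. Over the 38 division genes the median difference was 0.72, with 37 positive, against a median of 0.0022 over all genes. The arrays measure RNA pooled over a culture, so more dividing cells and more RNA per dividing cell cannot be told apart.

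Without an adjustment, 30 of the 54 genes were higher and 3 lower at a limma p under 0.05, against 11.0% and 11.4% of all genes (22.5% in either direction). All 3 EpiX arrays lay above all 3 BEGM arrays for 31 of the 54 genes, and below them for 3, where 13.5% and 14.5% of all genes did so. Of the division genes, 29 lay above and 0 below. The 12 called genes were higher in EpiX in all 3 same-numbered pairs. The count of genes called higher depended on the arrays used: leaving out BEGM array 1, 2 or 3 gave 14, 1 or 7, and leaving out EpiX array 1, 2 or 3 gave 1, 0 or 3. In these fits 25 to 30 of the 54 genes were higher at an unadjusted limma p under 0.05, against 7.32% to 13.6% of all genes. Without BEGM array 1, 6.57% of all genes were called higher and 7.32% lower. Of all genes 0.539% and 1.47% were called higher without BEGM arrays 2 and 3, and 0.472%, 0.253% and 1.20% when EpiX array 1, 2 or 3 was left out.

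**Figure D1:**
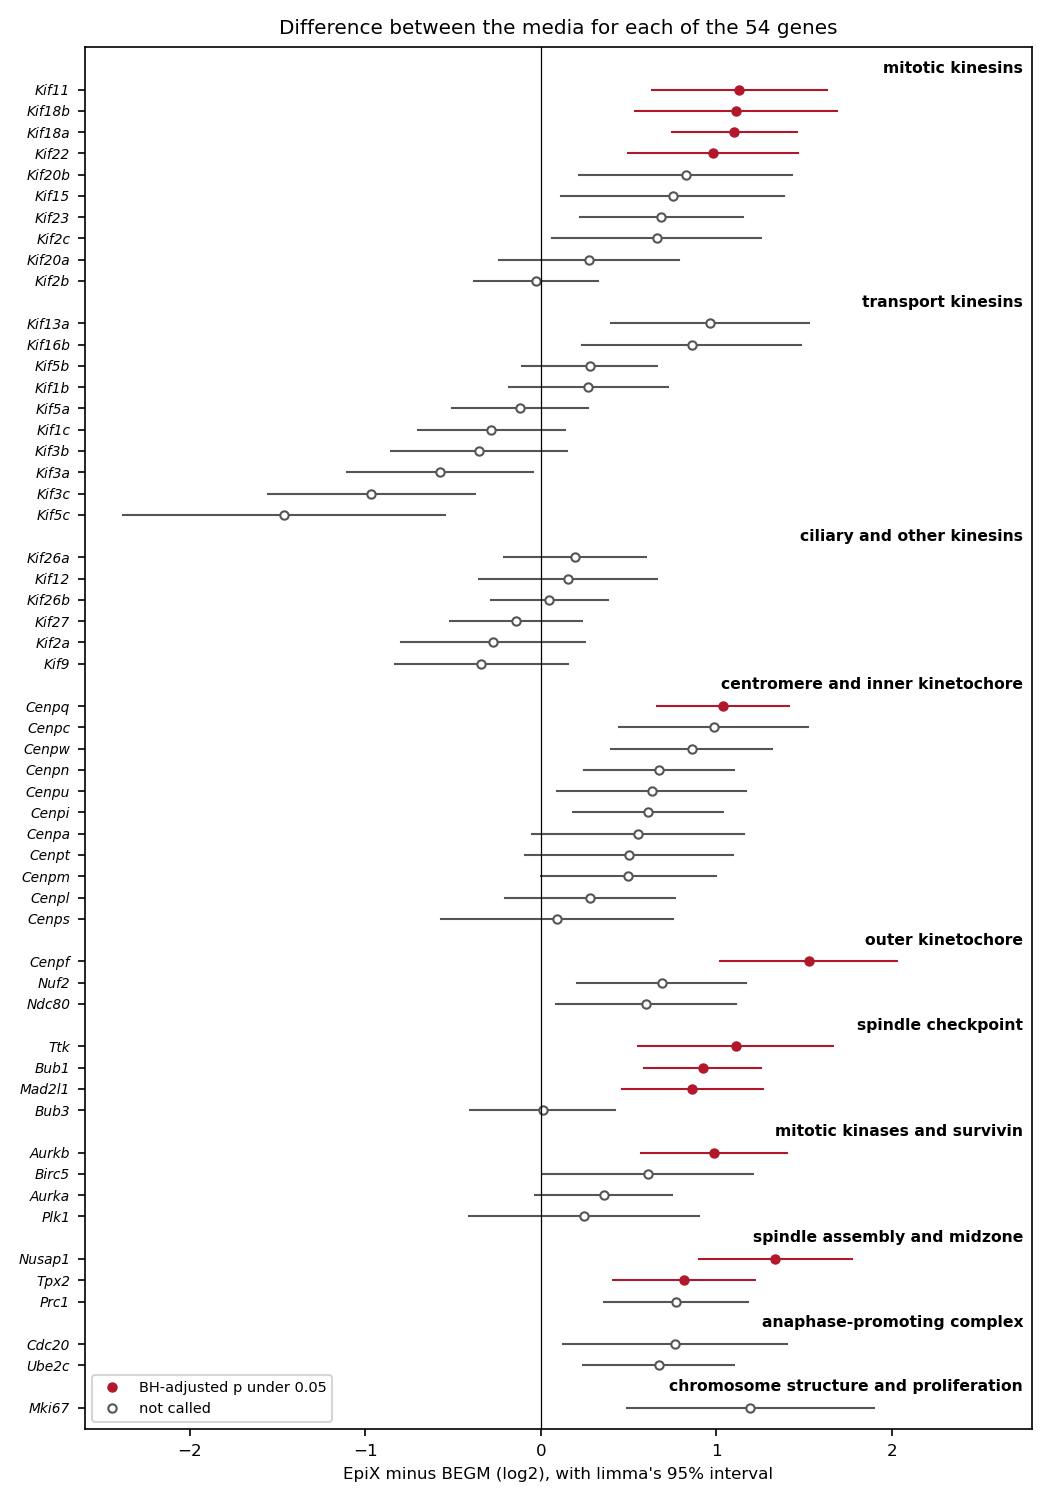
Difference between the media (EpiX minus BEGM, log2) for each of the 54 genes, grouped by role, with the 95% interval of the limma fit on 3 arrays per medium. Filled red points are the 12 genes called higher; the division genes lie to the right of 0 with Kif2b as the exception, while the transport kinesins spread from -1.46 to 0.97.

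BEGM array 1 stands apart from the other BEGM arrays. Across genes, which are not independent replicates, its correlation was 0.977 with BEGM array 3, below the 0.982 to 0.985 with the 3 arrays in EpiX, and 0.986 with BEGM array 2. The basal markers Krt14, Krt15, Tp63 and Itga6 were bright on all 6 arrays, from 9.99 upward, while Ngfr was dim; Krt15 and Tp63 rose, and Krt5 was not analysed here. The mean over 7 fibroblast markers was 6.22, 7.17 and 9.81 in BEGM and 5.27 to 5.57 in EpiX. All 7 had a lower mean in EpiX, with a median difference of -2.15. By limma 0 of the 7 were called, with 4 lower at an unadjusted p under 0.05, but 5 were called lower without BEGM array 1, 2 without BEGM array 3, 2 with the sample number as a block and 4 with array weights. The mean over 4 smooth muscle markers was 7.81 to 8.86 in BEGM and 5.80 to 6.01 in EpiX, of which Acta2 and Cnn1 fell in EpiX, and Myh11 and Des were dim in both media. Means over the markers of ciliated cells (4.13 to 4.48), leukocytes (5.64 to 6.27) and endothelium (4.23 to 4.81) are given over all arrays, with Ptprc, Cd3e, Pecam1, Cdh5 and Foxj1 near the bottom of the scale and Cd68 bright in both media. The part of these cells in the results below was not tested. On BEGM arrays 1, 2 and 3 the division genes averaged -0.49, -0.30 and -0.30 relative to each gene's mean over the 6 arrays. Any link between these means and the marker levels was not tested.

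Mitotic kinesins drive spindle assembly, chromosome movement and cytokinesis. Of the 10 measured, 4 rose, 6 did not pass and 0 fell (by limma; also 0 lower at an unadjusted p under 0.05), with a median difference of 0.79. All EpiX arrays lay above all BEGM arrays for 8. Across all genes, 2.63% were called higher and 13.5% had all EpiX arrays above all BEGM arrays. The number that rose was 4, 1 or 2 when BEGM array 1, 2 or 3 was left out, where 6.57%, 0.539% and 1.47% of all genes were called higher. It was 0, 0 or 1 when EpiX array 1, 2 or 3 was, where 0.472%, 0.253% and 1.20% of all genes were. At an unadjusted limma p under 0.05 the last 3 fits had 8, 7 and 7 higher, against 8.07%, 7.32% and 10.5% of all genes. The largest difference was that of Kif11 (probe set TC0100003549.rn.2), the motor that slides antiparallel microtubules apart to separate the spindle poles. In the order of arrays 1, 2 and 3, here and below, it was at 10.67, 10.36 and 10.90 in BEGM and at 11.71, 11.53 and 12.09 in EpiX. Its lowest EpiX array was above its highest BEGM array, and it rose by 1.13 ± 0.21 (SE, n = 3 per medium; limma adjusted p = 0.03). The call was lost without BEGM array 2 or any of the EpiX arrays.

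Kif18a and Kif18b, related motors that dampen the growth of microtubule plus ends and so limit chromosome swings and astral microtubules, rose by similar amounts. Kif18a was at 9.91, 10.08 and 9.93 in BEGM and at 11.01, 10.94 and 11.28 in EpiX, a rise of 1.10 ± 0.15 (limma adjusted p = 0.0122). Kif18a kept its call in 4 of the 6 fits that left out a single array, all but those without EpiX arrays 1 and 2. Kif18b was at 10.15, 10.32 and 10.52 in BEGM and at 11.09, 11.30 and 11.94 in EpiX, a rise of 1.11 ± 0.24 (adjusted p = 0.0478), highest on EpiX array 3. Its call was lost in each of the 6 such fits, with an adjusted p of 0.053 without BEGM array 1 (0.0225 to 0.424 over all alternatives). Kif22, a chromosome-bound motor that pushes chromosome arms towards the spindle equator, was at 9.07, 9.48 and 9.47 in BEGM and at 9.98, 10.47 and 10.51 in EpiX and rose by 0.98 ± 0.20 (adjusted p = 0.0424). Its lowest value in each medium was on array 1, and its call was kept only without BEGM array 1 among the fits that left out a single array.

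The mitotic kinesins that did not pass ranged from -0.03 ± 0.15 for Kif2b to 0.83 ± 0.26 for Kif20b (SE). Kif2b was near the bottom of the scale in both media (3.95 ± 0.12 and 3.92 ± 0.16, SD). Kif20b, a late-mitosis motor of the midbody, had an adjusted p of 0.117 and its EpiX arrays lay above its BEGM arrays, as did those of Kif15, Kif23 and Kif2c. Kif23, the motor of the centralspindlin complex that organises the midzone, differed by 0.69 ± 0.20 (adjusted p = 0.0939), and was called without BEGM array 1 (adjusted p = 0.0216; 0.0216 to 0.549 over the alternatives). Kif20a, which brings the chromosomal passenger complex to the midzone, was at 10.75, 11.26 and 11.35 in BEGM and at 11.36, 11.16 and 11.66 in EpiX. Its media overlapped, with a 95% interval for the difference of -0.24 to 0.78.

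Transport kinesins, which carry cargo in dividing and resting cells alike, had no common direction. Of 10 measured members 0 were called by limma, against 5.78% of all genes. At an unadjusted limma p under 0.05, 2 were higher and 3 lower, where 11.0% and 11.4% of all genes were. Their median difference was -0.20, and EpiX lay above BEGM for 2 and below it for 3, where 13.5% and 14.5% of all genes did so. The ubiquitous heavy chain of conventional kinesin, Kif5b, was at 13.83, 13.43 and 13.41 in BEGM and at 13.91, 13.75 and 13.86 in EpiX. Its media overlapped and the difference was 0.28 ± 0.16 (SE; adjusted p = 0.379; 95% interval -0.11 to 0.66).

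Kif5c, a heavy chain of the same motor best known from neurons, was at 6.85, 6.46 and 8.06 in BEGM and at 5.62, 5.55 and 5.81 in EpiX, with BEGM array 3 the highest by more than 1 unit. Its difference of -1.46 ± 0.39 did not pass (adjusted p = 0.0793), and was called with the sample number as a block (adjusted p = 0.039; 0.0301 to 0.364 over the alternatives). The third heavy chain, Kif5a, differed by -0.12 ± 0.16 (adjusted p = 0.738).

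The kinesin-2 subunits, which power intraflagellar transport in cilia and carry other cargo, were all on the lower side in EpiX without a call. Kif3a, the shared subunit, was at 10.30, 10.16 and 9.57 in BEGM and at 9.53, 9.55 and 9.23 in EpiX, without overlap, and differed by -0.57 ± 0.22 (adjusted p = 0.192). Kif3c was at 8.68, 8.26 and 8.09 in BEGM and at 6.94, 7.71 and 7.48 in EpiX, also without overlap (-0.97 ± 0.25, adjusted p = 0.0748), and Kif3b overlapped (-0.35 ± 0.21, adjusted p = 0.393).

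The other direction was taken by Kif13a and Kif16b, motors of endosome traffic. Kif13a was at 11.95, 11.58 and 11.04 in BEGM and at 12.55, 12.36 and 12.55 in EpiX, without overlap, a difference of 0.97 ± 0.24 (adjusted p = 0.0658, and 0.0131 without BEGM array 1, the highest array of that medium; 0.0131 to 0.447 over the alternatives). Kif16b differed by 0.86 ± 0.26 (adjusted p = 0.115, 0.013 without BEGM array 1 and 0.0479 with the block; 0.013 to 0.593 over the alternatives). Kif1b and Kif1c, carriers of organelles and vesicles, lay within the spread between arrays (0.27 and -0.28).

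Set side by side, the median difference of the mitotic kinesins exceeded that of the transport kinesins by 0.99, a description with no test since genes are not replicates. On each array the mean of the mitotic kinesins minus that of the transport kinesins, both relative to each gene's mean over the 6 arrays, was -0.85, -0.24 and -0.25 in BEGM against 0.23, 0.37 and 0.73 in EpiX. The media did not overlap. BEGM array 1 was the lowest, with the highest mean of the transport kinesins (0.32) and the lowest of the mitotic kinesins (-0.53). Without that array the difference between the medians was 0.85, and it was 0.85 to 1.23 over all fits that left out an array or a sample number.

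**Figure D2:**
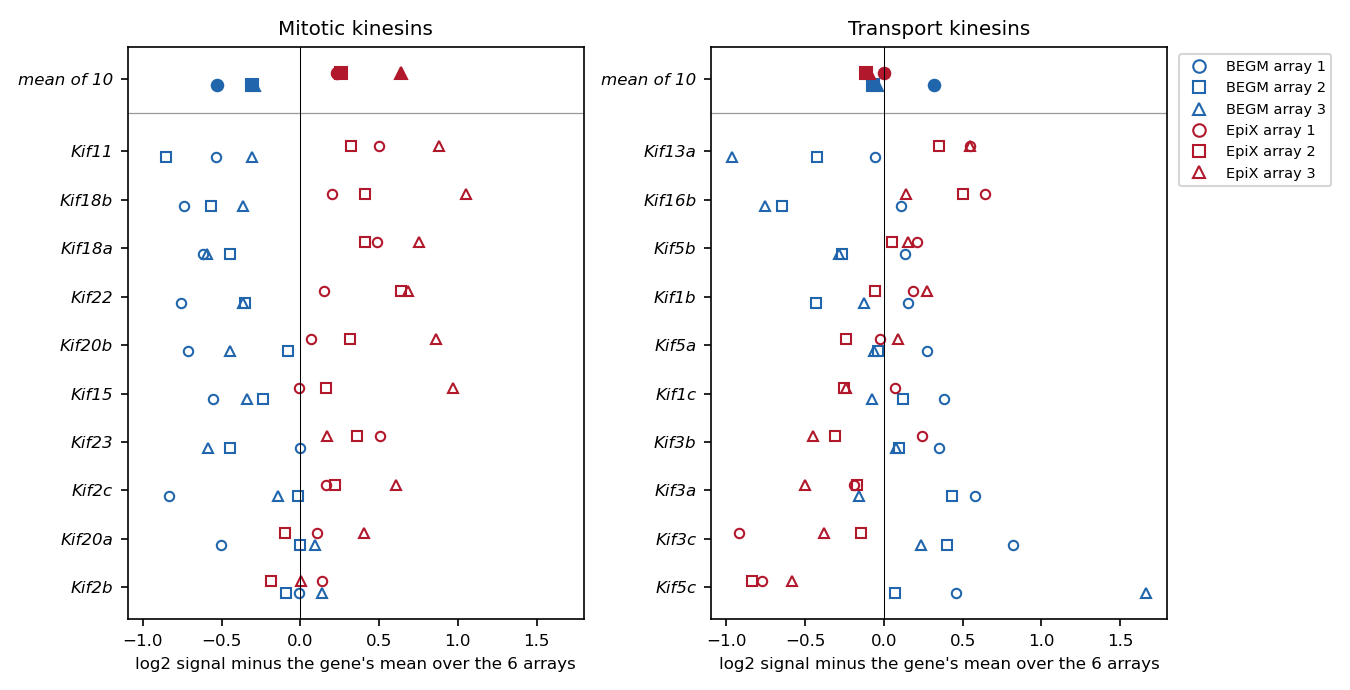
Log2 signal of each mitotic kinesin (left) and transport kinesin (right) on the 6 arrays, as the deviation from the gene's own mean, with the mean of the 10 genes per array as filled symbols at the top. Mitotic kinesins have the EpiX arrays on the right for 8 of 10 genes, and transport kinesins have them on either side.

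Ciliary and other kinesins showed no difference that passed the test. The 6 members were called in 0 cases by limma, also 0 at an unadjusted p under 0.05, against 5.78% and 22.5% of all genes. Their media overlapped for every gene, as they did for 10829 of all 15037 genes. Differences ran from -0.34 ± 0.21 for Kif9, a motor of motile cilia, to 0.19 ± 0.17 for Kif26a. Kif2a, a microtubule-shortening motor of the same family as the mitotic Kif2c and also used outside mitosis, differed by -0.27 ± 0.22, while Kif2c differed by 0.66 ± 0.25 (adjusted p = 0.181). Kif9, Kif12, Kif26a, Kif26b and Kif27 lay under 6 on every array, and only Kif2a was bright, at 10.21 on its lowest array. The lack of a difference in the dim genes therefore shows little.

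The centromere and inner kinetochore hold the histone variant Cenpa and the network of Cenp proteins built on it. Of the 11 measured, 1 rose and 10 did not pass, and all 11 differences were positive, with a median of 0.61; 6 had an unadjusted p under 0.05. Across all genes, 2.63% were called higher and 11.0% were higher at an unadjusted limma p under 0.05. The gene that rose was Cenpq, a subunit of the network's branch that recruits outer kinetochore factors. Cenpq was at 9.70, 9.51 and 9.28 in BEGM and at 10.48, 10.48 and 10.65 in EpiX, close together within each medium, and rose by 1.04 ± 0.16 (limma adjusted p = 0.0165). Its call was lost when BEGM array 2 or any of the EpiX arrays was left out.

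Cenpc, the scaffold between centromeric chromatin and the outer kinetochore, was at 8.04, 7.82 and 8.41 in BEGM and at 8.74, 9.10 and 9.38 in EpiX. It narrowly missed the threshold (0.98 ± 0.23, adjusted p = 0.055), and so did the histone-fold protein Cenpw (0.86 ± 0.19, adjusted p = 0.0513). Both were called with the sample number as a block (adjusted p = 0.0315 and 0.0378; 0.0222 to 0.471 and 0.0269 to 0.389 over the alternatives), which made 3 members of the class. Cenpa itself, which marks the centromere, was at 6.29, 6.50 and 6.72 in BEGM and at 6.84, 6.74 and 7.59 in EpiX, where EpiX array 3 stood above the others, and differed by 0.55 ± 0.25 (adjusted p = 0.261). The smallest difference was that of Cenps (0.09 ± 0.28, adjusted p = 0.892), a protein that also works in DNA repair, with overlapping media.

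At the outer kinetochore, which grips the spindle microtubules, 1 of 3 measured members rose and the EpiX arrays lay above the BEGM arrays for all 3. The shares of all genes were 2.63% and 13.5%. Cenpf, a large protein of the kinetochore's fibrous corona that accumulates late in the cell cycle, was at 10.09, 9.97 and 10.32 in BEGM and at 11.41, 11.48 and 12.06 in EpiX. This was the largest difference among the 54 genes, a rise of 1.53 ± 0.21 (limma adjusted p = 0.0127; 95% interval 1.02 to 2.03), and its call was lost without BEGM array 2 or EpiX array 2. The microtubule-binding pair Ndc80 and Nuf2 did not pass (0.60 ± 0.22, adjusted p = 0.161, and 0.69 ± 0.20, adjusted p = 0.104). Cenpe, the corona's motor, was not analysed here.

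The spindle checkpoint had 3 rises among 4 measured members, where 2.63% of all genes were called higher. Ttk, also called Mps1, is the kinase that starts checkpoint signalling, and was at 10.90, 10.87 and 11.24 in BEGM and at 11.74, 12.05 and 12.55 in EpiX, a rise of 1.11 ± 0.23 (limma adjusted p = 0.0434). Bub1, a kinase that docks at unattached kinetochores, was at 10.45, 10.30 and 10.31 in BEGM and at 11.12, 11.35 and 11.36 in EpiX, with both media tight, and rose by 0.92 ± 0.14 (adjusted p = 0.0165). Mad2l1, the protein that sequesters Cdc20, was at 11.32, 11.34 and 11.47 in BEGM and at 11.97, 12.26 and 12.49 in EpiX and rose by 0.86 ± 0.17 (adjusted p = 0.0352). For each of the 3 the EpiX arrays lay above the BEGM arrays.

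The exception was Bub3, a partner of Bub1 that also takes part in other cell functions. It was at 12.27, 12.73 and 12.57 in BEGM and at 12.42, 12.47 and 12.73 in EpiX, and the media overlapped fully (0.01 ± 0.18, adjusted p = 0.98; 95% interval -0.40 to 0.43). Leaving out BEGM array 2 or any of the EpiX arrays ended all 3 checkpoint calls, and leaving out BEGM array 3 ended those of Ttk and Mad2l1.

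Among the mitotic kinases and survivin, 1 of 4 rose, against 2.63% of all genes called higher. Aurkb, the kinase of the chromosomal passenger complex that corrects faulty attachments and is needed for cytokinesis, was at 11.25, 10.99 and 11.23 in BEGM and at 11.88, 12.17 and 12.39 in EpiX and rose by 0.99 ± 0.18 (limma adjusted p = 0.026). Only without BEGM array 1 did its call outlast the removal of a single array (adjusted p = 0.0198; 0.0103 to 0.38 over the alternatives). Birc5, or survivin, which belongs to the same complex, differed by 0.61 ± 0.25 (adjusted p = 0.216). Aurka, the kinase of the spindle poles, differed by 0.36 ± 0.16 (adjusted p = 0.262), although its EpiX arrays lay above its BEGM arrays.

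Plk1, the polo-like kinase that acts from mitotic entry to exit, was at 14.01, 14.78 and 14.65 in BEGM and at 14.37, 14.66 and 15.14 in EpiX. BEGM array 1 and EpiX array 1 were the lowest and the media overlapped, with a difference of 0.24 ± 0.28 (adjusted p = 0.671) and a 95% interval of -0.41 to 0.90. That interval includes the rises of Tpx2 (0.82) and Mad2l1 (0.86). It ends below the point estimates of the other called members, the smallest of which was that of Bub1 (0.92). These have intervals of their own: that of Bub1 (0.59 to 1.26) overlaps the interval of Plk1, and that of Cenpf (1.02 to 2.03) does not. Whether Plk1 differs from the genes that rose was not tested.

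In spindle assembly and the midzone, 2 of 3 members rose, against 2.63% of all genes called higher, and the third narrowly missed. Nusap1, which bundles microtubules around chromosomes, was at 11.15, 10.81 and 10.91 in BEGM and at 12.54, 12.33 and 12.01 in EpiX, a rise of 1.34 ± 0.18 (limma adjusted p = 0.0125). Unlike most of the 38 division genes, it was highest on EpiX array 1, and its call was lost without BEGM array 2, EpiX array 1 or EpiX array 2. Tpx2, the activator of Aurka that nucleates spindle microtubules, was at 13.18, 13.19 and 13.25 in BEGM and at 13.76, 14.00 and 14.30 in EpiX and rose by 0.82 ± 0.17 (adjusted p = 0.0425). Its BEGM arrays lay close together, and its call was kept only without BEGM array 1 among the 6 fits with an array left out. Prc1, the cross-linker of midzone microtubules, differed by 0.77 ± 0.17 (adjusted p = 0.0524, and 0.0398 with the block; 0.0273 to 0.423 over the alternatives).

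The anaphase-promoting complex was represented by its activator Cdc20 and its ubiquitin-conjugating enzyme Ube2c. By limma 0 of these 2 were called, and both had an unadjusted p under 0.05 (0.76 ± 0.27, adjusted p = 0.154, and 0.67 ± 0.18, adjusted p = 0.0842). At an unadjusted limma p under 0.05, 11.0% of all genes were higher. Ube2c was at 11.78, 11.97 and 11.65 in BEGM and at 12.17, 12.62 and 12.63 in EpiX, without overlap, while BEGM array 2 reached the range of EpiX for Cdc20. Mki67, the coat protein of mitotic chromosomes used as a marker of proliferation, was at 12.50, 13.18 and 13.39 in BEGM and at 14.00, 13.96 and 14.69 in EpiX. All EpiX arrays lay above all BEGM arrays, but BEGM array 1 was well below the next array, and the difference of 1.19 ± 0.30 did not pass (adjusted p = 0.0675). It was called with the sample number as a block (adjusted p = 0.0254; 0.0254 to 0.418 over the alternatives).

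**Figure D3:**
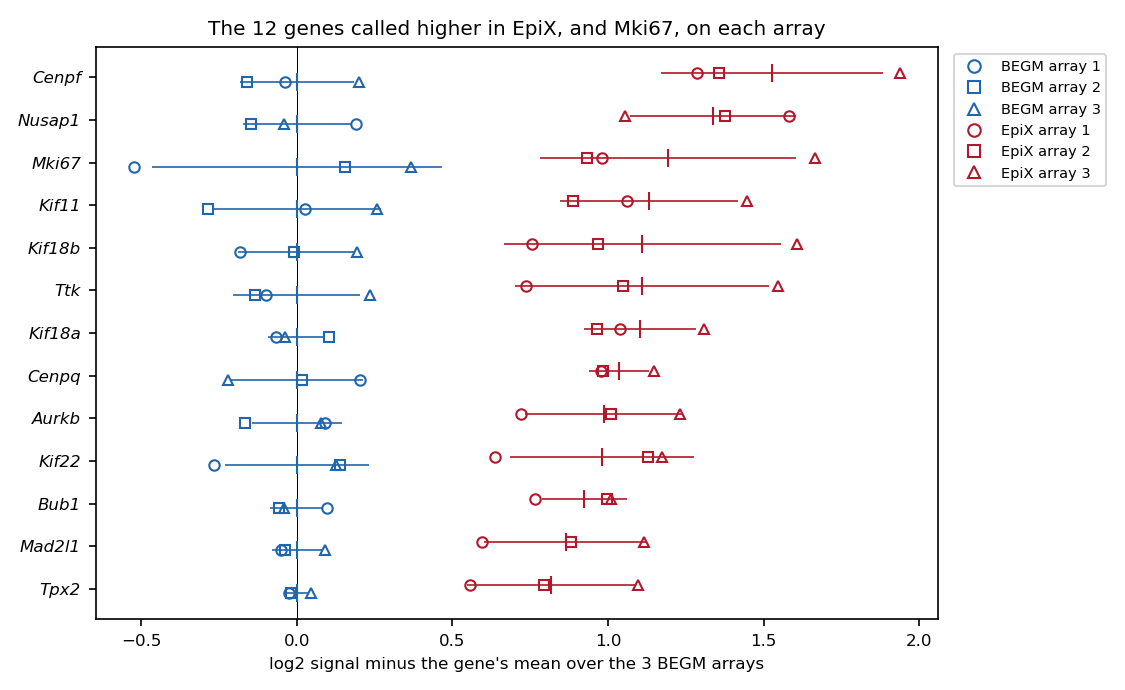
The 12 genes called higher in EpiX, and Mki67, on each array as log2 signal minus the gene's mean over the 3 BEGM arrays. Symbols give the array number, vertical ticks the mean and horizontal lines 1 SD over 3 arrays; no EpiX array reaches a BEGM array, and EpiX array 3 is the highest for every gene shown but Nusap1.

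The same arrays stood at the extremes of most of these genes. EpiX array 3 was the highest array for 31 of the 38 division genes and BEGM array 1 the lowest for 19, followed by BEGM array 2 for 11, BEGM array 3 for 7 and EpiX array 2 for 1. The mean over the 38 genes, relative to each gene's own mean, was -0.49, -0.30 and -0.30 in BEGM and 0.16, 0.31 and 0.62 in EpiX. With the sample number as a block, 17 of the 54 genes were called higher and 1 lower (Kif5c), where 3.94% and 4.39% of all genes were called. The genes gained were Cenpc, Cenpw, Kif16b, Mki67 and Prc1, and all 12 kept their call.

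Genes of the same machinery outside the symbol rule were measured beside them. Of 53 further spindle and kinetochore genes 40 had a named probe set: 10 rose, 1 fell and 29 did not pass. Their median difference was 0.66, and all EpiX arrays lay above all BEGM arrays for 27. Of all genes, 2.63% were called higher, 3.15% were called lower and 13.5% had all EpiX arrays above all BEGM arrays. The largest rises were those of the spindle and hyaluronan-binding protein Hmmr (1.50 ± 0.18, adjusted p = 0.00821), the spindle pole protein Aspm (1.37 ± 0.24, adjusted p = 0.0234), Arhgap11a (1.25 ± 0.19, adjusted p = 0.0157) and Dlgap5 (1.20 ± 0.23, adjusted p = 0.0303), a spindle-stabilising protein. Hmmr was at 11.16, 10.80 and 10.59 in BEGM and at 12.40, 12.34 and 12.31 in EpiX. Spc25, a subunit of the Ndc80 complex beside Ndc80 and Nuf2, rose by 0.97 ± 0.17. Incenp, the scaffold of the chromosomal passenger complex, missed the threshold (0.91 ± 0.21, limma adjusted p = 0.0558). The adjusted p of Incenp was 0.0242 with the block and 0.0242 to 0.45 over the alternatives. The C-terminal motor Kifc1, a mitotic kinesin whose symbol the rule does not match, differed by 0.46 ± 0.20 (adjusted p = 0.235). The count of rises in this list was 12, 3 or 8 when BEGM array 1, 2 or 3 was left out. It was 2, 0 or 3 when EpiX array 1, 2 or 3 was. Of all genes, 6.57%, 0.539% and 1.47% were called higher without BEGM arrays 1, 2 and 3. The shares without EpiX arrays 1, 2 and 3 were 0.472%, 0.253% and 1.20%. Without EpiX array 2, 24 genes of this list were higher at an unadjusted limma p under 0.05, against 7.32% of all genes.

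The gene that fell was Zwint, a kinetochore protein that links the outer kinetochore to the checkpoint complex of Zw10. It was at 12.78, 12.58 and 12.87 in BEGM and at 11.93, 12.00 and 12.04 in EpiX, without overlap, and fell by 0.76 ± 0.14 (SE; limma adjusted p = 0.0295; 0.015 to 0.309 over the alternatives). The call was kept without BEGM array 1 and lost when any other single array was left out. Its partner Zw10 did not differ beyond the spread between arrays (0.07 ± 0.15, adjusted p = 0.83), and Knl1, the kinetochore scaffold that Zwint binds, differed by 0.58 ± 0.28 (adjusted p = 0.282). Zwint, Zw10, Knl1, Spc25 and Incenp were singled out after their values were seen.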

How the data were processed

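The values that the authors deposited, for 24834 probe sets on 6 arrays, were taken to be log2 because of their range. Their processing notes list the Transcriptome Analysis Console without a role; the normalization, centring and log base were not stated in the sources used here. Values ran from 2.62 to 18.66, and base 2 was assumed. Detection calls were not used here, so dim probe sets have no present or absent call, and the number of arrays limits the precision. Depth does not apply to arrays.

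Probe sets were named through the platform annotation: 15049 had 1 gene symbol, 0 several, and the brightest of each gene was kept, which left 15037 genes. All genes entered 1 limma 3.58.1 fit (R 4.3.3) of EpiX against BEGM without a filter, and p-values were 2-sided and BH-adjusted over all genes. The fit was also run on simulated data with independent noise for each gene. Those data held no line effect and no deviating array, so that run does not bear on either. The members, role classes, lists and tests were chosen with earlier results of these data known. Values on every array are given for called members, a few fixed genes and some genes not called. The extremes of each class are named among the genes not called, and others are named beside them outside that rule. The labels name 3 lines of pooled rats but not which array is which line, so p-values measure the spread between these cultures.

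The fit behind the calls did not pair the arrays. In the alternatives with a block, arrays of equal sample number were treated as coming from 1 line, because every line went into both media. Titles use other numbers, 3 for the arrays called 2 here, and those of the arrays called 3 here hold no sample number and are worded differently. Deviations from the group means of same-numbered arrays correlated across genes at 0.32, -0.01 and 0.32, and those of other pairs at -0.37 to 0.16. Alternatives were the sample number as a fixed or random block, quantile normalization, median centring, omission of dim genes, array weights, robust trended variances, averaged probe sets, and leaving out arrays or numbers. Promoter windows were RefSeq's.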

Additional observations from a re-analysis of the deposited data

How the results depend on the processing

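Over the 17 alternatives the median of the mitotic kinesins stayed above that of the transport kinesins (0.85 to 1.23). Array weights gave 1987 genes called in all, 22 members higher and 1 lower, 3 transport kinesins called in either direction and 16 of the other spindle genes called higher. The replicate block, which treats the sample numbers as paired, gave 1 member lower and 2 transport kinesins called, and the random block 1 transport kinesin. The block also took the centromere and inner kinetochore class from 1 to 3 called higher, Mki67 to a call and fibroblast markers from 0 to 2 called lower. Leaving out 1 array or 1 sample number gave 0 to 2089 genes called in all, 0 to 14 members higher, 0 to 1 lower, 0 to 4 mitotic kinesins, 0 to 2 transport kinesins and 0 to 12 other spindle genes higher. The count of members called higher by limma was 0 without EpiX array 2, where 0.253% of all genes were called higher. It was also 0 without sample number 2, where 0 of all 15037 genes were called higher or lower. At an unadjusted limma p under 0.05, the fit without sample number 2 had 23 of 54 members higher. It had 18 of 40 other spindle genes higher, against 745 of all 15037 genes. The cause was not tested, and these fits hold fewer arrays. Median centring moved the median of all differences to 0.13 and turned Kif2b to 0.098, and array weights turned Bub3 to -0.082. Leaving out arrays or numbers gave -0.12 to 0.15 for Bub3, -0.12 to 0.32 for Cenps and -0.11 to 0.056 for Kif2b, none of them called. Dim genes such as Kif2b have no presence call, which limits what their lack of difference shows.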

Other observations

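The tubulins, which form the tracks of these motors, and other microtubule proteins were described with lists chosen after their values were seen. Of 15 alpha and beta tubulins 4 fell in EpiX, 0 rose and 11 did not pass by limma (5 lower and 1 higher at an unadjusted p under 0.05), where 3.15% of all genes were called lower. Tubb2b, a beta tubulin best known from neurons, was at 11.63, 11.76 and 10.98 in BEGM and at 6.56, 7.38 and 7.13 in EpiX and fell by 4.43 ± 0.28 (SE; adjusted p = 0.00151). Tuba1a, an alpha tubulin of developing neurons, was at 15.50, 15.46 and 15.08 in BEGM and at 10.79, 11.35 and 12.25 in EpiX (-3.88 ± 0.36, adjusted p = 0.00427), and Tubb4a and Tubb2a also fell (-1.99 ± 0.36 and -1.57 ± 0.20). The media did not overlap for these 4 genes, which were lower by 2.97-fold to 21.6-fold if the base is 2. The count of falls was 2 without EpiX array 2, where 63 of all 15037 genes were called lower. It was 3 or 4 without any other array, where 99 to 1101 of all genes were. The abundant tubulins of most cells, Tubb5, Tuba1b and Tubb4b, differed by 0.07 ± 0.14, -0.13 ± 0.16 and -0.04 ± 0.20, within the spread between arrays.

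Among 12 microtubule-associated and end-binding proteins 3 fell and 0 rose by limma (4 lower and 1 higher at an unadjusted p under 0.05): Map1b (-4.30 ± 0.34, adjusted p = 0.00227), the end-binding protein Mapre2 (-2.21 ± 0.46, adjusted p = 0.0421) and Map9 (-1.18 ± 0.20, adjusted p = 0.0225). The shares of all genes were 3.15% called lower and 2.63% higher, and 11.4% lower and 11.0% higher at an unadjusted limma p under 0.05. The count of falls was 1 without BEGM array 2 or any of the EpiX arrays and 2 without BEGM array 3, while 4 fell and 1 rose without BEGM array 1. Without BEGM arrays 1, 2 and 3, 1101, 111 and 323 of all 15037 genes were called lower. The counts without EpiX arrays 1, 2 and 3 were 99, 63 and 237. Without BEGM array 1, 6.57% of all genes were called higher. Stathmins, which bind tubulin dimers and destabilise microtubules, went both ways. Stmn1, the form of proliferating cells, rose by 1.02 ± 0.14 (adjusted p = 0.0122), and the neuronal form Stmn2 fell (-1.77 ± 0.28, adjusted p = 0.0181). Neither was called without EpiX array 1 or EpiX array 2, and Stmn2 was not called without BEGM array 2 or EpiX array 3. Of 11 cytoplasmic dynein and dynactin subunits, the motor complex that runs the other way along microtubules, 0 were called by limma and 1 had an unadjusted p under 0.05 (Dctn4, -0.39 ± 0.17). Of 5 kinesin light chains and C-terminal motors other than Kifc1, 0 were called by limma and 2 had an unadjusted p under 0.05. Such a p was found for 22.5% of all genes. With the sample number as a block, 4 tubulins were called lower and 1 higher (Tuba8), and of the microtubule-associated proteins 3 lower and 1 higher (Map7). That fit called 4.39% of all genes lower and 3.94% higher. The mean fibroblast and smooth muscle marker levels were also higher in BEGM, and their part in these differences was not tested.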
